A study of Homo sapiens with 6 samples.

Results

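The genes compared here encode the nuclear subunits of respiratory chain complexes I to IV, chosen by name: a gene belonged if its symbol in the annotation of the array equalled 1 of 55 listed symbols. Of these 54 had a probe set, among 81496 symbols and 135750 transcript probe sets on the array. They comprise 32 subunits of complex I, 4 of complex II, 8 of complex III and 10 of complex IV. NDUFC2 was present only under the read-through symbol NDUFC2-KCTD14 and is therefore not counted. Where a symbol had several probe sets, which was the case for 6 subunits, that with the highest mean level on the arrays compared was used.

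Clariom D arrays were hybridised with total cellular RNA of 2 human breast epithelial cell lines, 3 arrays per line. MCF10.AT1 is a preneoplastic derivative of MCF10A and was cultured untreated. MCF10.AT1-R is the fluvastatin-resistant line obtained from it by stepwise exposure to the statin at 1 to 20 µM, and the sources used here do not say whether fluvastatin was present at harvest. Both lines share the genetic background of MCF10.AT1, and the resistant line is a single selected derivative, so another selection could differ. The labels name the replicates of each line as biological. The comparison used A01 and A02 of MCF10.AT1 and B02, B03 and B04 of MCF10.AT1-R, since the study removed A03 as an outlier. The array letter and the line cannot be told apart, and 2 arrays against 3 limit the precision of every value. All levels below are log2 values made by Robust Multichip Average (RMA), and all changes are MCF10.AT1-R minus MCF10.AT1 on that scale.

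Oxidative phosphorylation takes place at the inner mitochondrial membrane. Complexes I and II pass electrons from NADH and succinate to ubiquinone, complex III passes them on to cytochrome c, and complex IV hands them to oxygen. Complexes I, III and IV pump protons, and ATP synthase uses the resulting gradient. Most subunits are encoded in the nucleus and imported, whereas a small core set is encoded by mitochondrial DNA. Ubiquinone carries an isoprenoid tail from the mevalonate pathway, the pathway that statins inhibit at HMG-CoA reductase.

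Correlations between pairs of the 5 arrays lay between 0.967 and 0.977, and those of A03 with each of them between 0.779 and 0.795. All 8 breast epithelial markers (KRT5, KRT14, KRT17, TP63, CDH1, EPCAM, ITGB4 and LAMB3) lay above the 95th percentile of the negative control probe sets on all 5 arrays. Their summed level was 53.0 to 54.0 in MCF10.AT1 and 67.7 to 68.6 in MCF10.AT1-R, and 6 of the 8 were higher in MCF10.AT1-R at FDR 5% in limma. The 6 cornifying keratinocyte markers summed to 19.0 to 19.3 and 24.0 to 26.1, with 3 of them above the negative controls on all 5 arrays. The corresponding sums were 22.5 to 23.1 and 20.7 to 21.1 for 5 fibroblast markers, of which DCN was called lower in limma, 13.5 to 15.0 and 15.2 to 16.8 for 5 leukocyte markers, 13.4 to 13.8 and 11.6 to 12.7 for 4 endothelial markers, and 11.4 to 13.3 and 7.80 to 10.4 for 4 adipocyte markers. Of these, PECAM1 and FABP4 were called lower, and KRT1, IVL and CDSN of the cornifying list were called higher. On all 5 arrays, 2 of the 5 fibroblast, 3 of the 5 leukocyte, 2 of the 4 endothelial and 1 of the 4 adipocyte markers lay above the negative controls. The leukocyte marker PTPRC, the endothelial marker KDR and the adipocyte marker ADIPOQ stayed within the negative controls on every array. The part of these marker differences in the values of the subunit genes was not tested.

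The nuclear-encoded subunit genes were expressed at nearly the same level in both lines. All 54 lay above the low-expression limit and above the 95th percentile of the negative controls on all 5 arrays, with levels from 4.70 to 11.21. The changes ran from -0.54 for UQCRB, a ubiquinone-binding protein of complex III, to 0.42 for UQCRC2, a core protein of the same complex, with SDHD of complex II at -0.45. Of the 54 changes, 41 (75.9%) were within 0.25 of 0 and 53 (98.1%) within 0.5, against 61.2% and 88.4% of all symbols above the low-expression limit. The median SD over the 5 arrays was 0.127 for the subunit genes and 0.257 for all symbols. Levels were not matched in these comparisons: of the 47805 symbols above the low-expression limit, 23658 lay above the negative controls on all 5 arrays.

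With limma no subunit gene passed an FDR of 5% in either direction, against 0.758% of the 51457 probe sets tested for higher and 0.447% for lower expression in MCF10.AT1-R. Only 15 of the 54 subunit genes entered this test, since the filter that removed the 25% of probe sets with the lowest SD took out 39 of them (72.2%, against 24.2% of all probe sets above the low-expression limit). Levels were not matched here either. None of the 15 had an unadjusted p under 0.05. Among all probe sets the smallest change called in this fit was 1.07, a size that no subunit gene reached. Without any filter, and with the low-expression filter alone, limma again called no subunit gene and gave 2 of 54 an unadjusted p under 0.05. A fit in which the variance follows the level (the trend option of limma) called 1 subunit gene higher and 3 lower among the 15, where 1.69% and 0.981% of the tested probe sets were called. With the low-expression filter alone together with the trend option all 54 were tested, 1 was called higher and 2 lower, and 1.13% and 0.474% of 67875 probe sets were called. The 95% intervals given below come from this last fit. For 42 of the 54 subunit genes the whole interval lay within 0.5 of 0, and for all 54 within 1.

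A description that does not depend on the variance model is whether the arrays of the lines overlap. Every MCF10.AT1-R array was above both MCF10.AT1 arrays for 9 subunit genes (16.7%) and below both for 17 (31.5%), and the arrays overlapped for the remaining 28. Over all probe sets above the low-expression limit the shares were 12.9% and 13.2%. Without A02 16 genes were higher and 25 lower without overlap, and without B03 14 were higher and 17 lower. Fewer arrays make separation easier, and the share over all probe sets was not counted with an array left out. In all, 20 changes were above 0 and 34 below 0, with a median of -0.07. The median over all symbols was -0.01, and 51.3% of symbols were below 0. The array B03 carried the lowest value of the 5 for 26 of the 54 subunit genes (48.1%), against 25.7% of all symbols, and it was the lowest array for 12 of the 17 subunit genes that were lower without overlap. On B03 39 subunit genes were below the MCF10.AT1 mean, on B02 34 and on B04 28. The plot of all members by array shows this leftward position of B03.

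**Figure D1:**
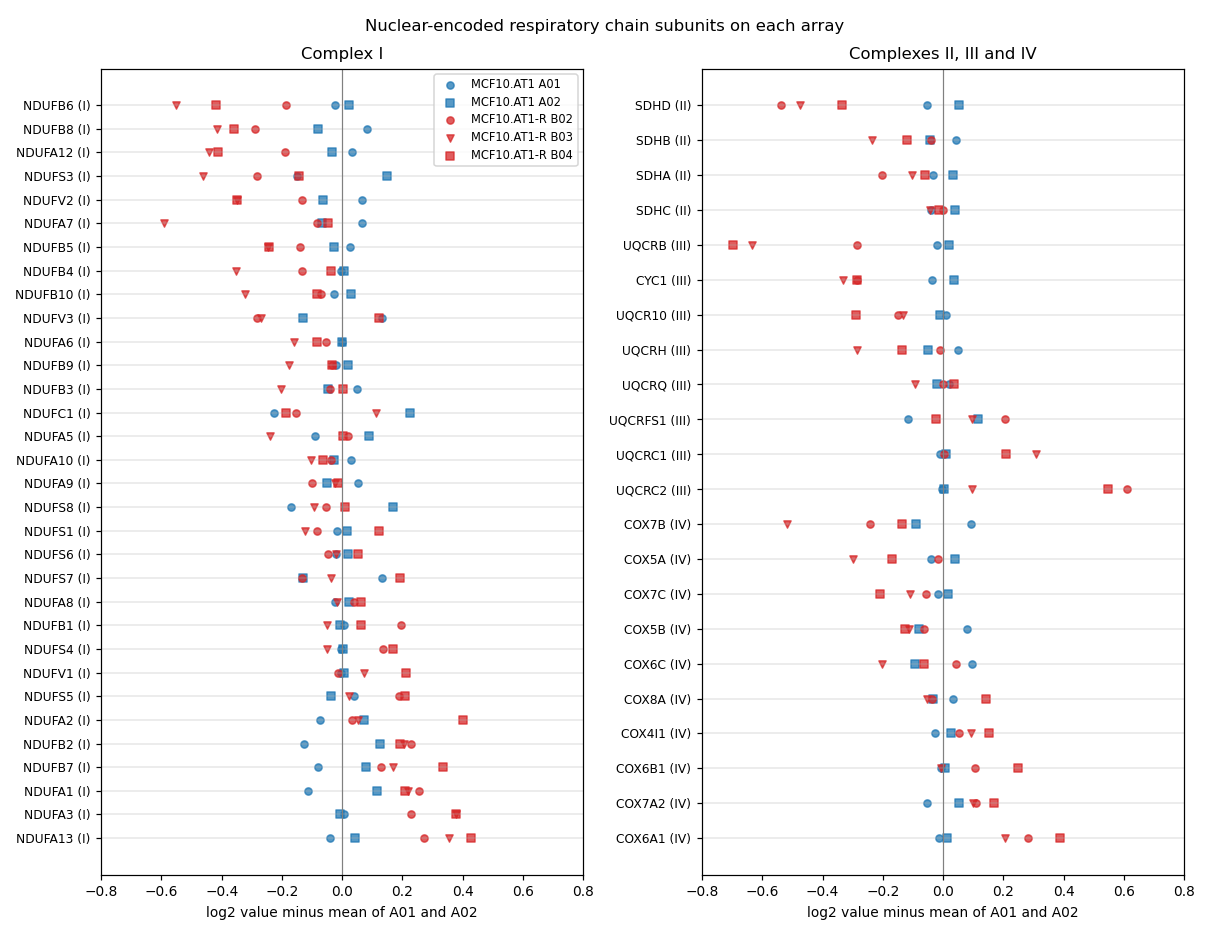
Level of each of the 54 nuclear-encoded subunit genes on the 5 arrays compared, as the log2 value minus the mean of the MCF10.AT1 arrays A01 and A02 (horizontal axis), with the complex in parentheses and genes sorted by change within each complex. Each point is 1 array, blue for MCF10.AT1 and red for MCF10.AT1-R. Most points lie within 0.25 of 0, and the triangles of B03 are the lowest of the 5 for 26 genes.

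Nuclear-encoded respiratory chain genes are textbook targets of the factors NRF1, YY1 and those of the ETS family, so promoters were searched for their motifs. RefSeq promoters (250 bases before to 50 after the start, build GRCh38.p14) were available for 47 of the 54 genes. The letters GCGCATGCG (NRF1) were present in 7 of the 47 (14.9%, against 2.34% of 27305 genes), ACCGGAAGT (ETS family) in 2 (4.26%, against 1.20%) and AAGATGGCG (YY1) in 8 (17%, against 2.14%). Both strands were searched, and because the NRF1 letters are nearly their own reverse complement, matches on the 2 strands can overlap. Any of the 3 was present in 15 of the 47 (31.9%, against 5.43% of all genes and 7.62% of coding genes). The 15 genes with a motif did not share a direction: 4 were lower and 2 higher without overlap, and 9 overlapped. Printed here, on the strand of the gene and with the matched letters in capitals, are the 4 with a motif whose arrays did not overlap and whose change was over 0.25, namely SDHD and NDUFB8, which were lower, and COX6A1 and NDUFA13, which were higher. The positions are chr11:112086623-112086902 (plus strand) for SDHD, chr10:100529842-100530121 (minus strand) for NDUFB8, chr12:120437863-120438142 (plus strand) for COX6A1 and chr19:19515975-19516254 (plus strand) for NDUFA13. Each runs over 280 bases, from 250 before to 30 after the start.
SDHD: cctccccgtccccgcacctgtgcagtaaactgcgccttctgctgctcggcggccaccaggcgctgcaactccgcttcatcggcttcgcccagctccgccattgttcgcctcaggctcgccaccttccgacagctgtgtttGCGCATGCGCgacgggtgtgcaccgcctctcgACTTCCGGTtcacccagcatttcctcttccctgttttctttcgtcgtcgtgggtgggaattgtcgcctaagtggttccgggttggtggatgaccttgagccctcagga
NDUFB8: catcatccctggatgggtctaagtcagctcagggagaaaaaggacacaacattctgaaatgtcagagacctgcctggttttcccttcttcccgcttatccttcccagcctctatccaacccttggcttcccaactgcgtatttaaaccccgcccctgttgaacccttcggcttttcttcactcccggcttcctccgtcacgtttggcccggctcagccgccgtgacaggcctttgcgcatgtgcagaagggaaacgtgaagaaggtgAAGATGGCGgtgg
COX6A1: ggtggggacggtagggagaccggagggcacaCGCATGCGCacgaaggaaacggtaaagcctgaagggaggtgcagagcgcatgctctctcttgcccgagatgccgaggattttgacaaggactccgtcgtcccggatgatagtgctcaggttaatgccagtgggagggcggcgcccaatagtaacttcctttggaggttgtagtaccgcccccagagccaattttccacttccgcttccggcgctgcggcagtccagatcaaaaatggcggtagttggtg
NDUFA13: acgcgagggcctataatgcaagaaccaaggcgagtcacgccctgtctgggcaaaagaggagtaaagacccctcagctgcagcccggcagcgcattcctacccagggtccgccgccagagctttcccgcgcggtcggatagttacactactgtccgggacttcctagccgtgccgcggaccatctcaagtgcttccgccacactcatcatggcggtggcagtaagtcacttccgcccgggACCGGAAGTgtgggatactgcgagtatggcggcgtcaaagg
In SDHD the NRF1 letters began 110 bases upstream of the start and the ETS letters, on the opposite strand, 78 bases upstream. The single match began 219 bases upstream in COX6A1 (NRF1), 11 bases upstream in NDUFA13 (ETS family) and 18 bases downstream in NDUFB8 (YY1). A match describes the letters of the window and is no measurement of binding.

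Complex I, the NADH dehydrogenase that feeds most electrons into the chain, had a median change of -0.06 over its 32 genes. In 5 genes the MCF10.AT1-R arrays were all higher and in 10 all lower, and 17 overlapped. Its peripheral arm, which oxidises NADH and reduces ubiquinone, held 15 of the genes, of which 3 were lower and 0 higher without overlap. Its membrane arm, which carries out proton pumping, held 17, of which 5 were higher and 7 lower.

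The largest increase in complex I was that of NDUFA13, an accessory subunit of the membrane arm also known as GRIM-19. Its level was 9.01 and 9.10 on the MCF10.AT1 arrays and 9.33, 9.41 and 9.48 on those of MCF10.AT1-R. The change was 0.35 (95% interval 0.18 to 0.52), with an adjusted p of 0.0168 in limma with the trend option, 0.0477 with the low-expression filter alone together with that option, and 0.831 in the test without it. Each resistant array was thus above both parental arrays, and NDUFA13 was the only subunit gene called higher in either trend fit.

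NDUFA3, another small accessory subunit of the membrane arm, measured 6.72 and 6.71 in MCF10.AT1 and 6.94, 7.09 and 7.09 in MCF10.AT1-R. Its change was 0.33 (0.06 to 0.59; adjusted p = 0.835 in limma). The other probe set with this symbol showed the opposite direction, with 4.34 and 4.23 in MCF10.AT1 against 3.86, 3.52 and 3.84 in MCF10.AT1-R and a change of -0.54 (adjusted p = 0.689). Neither set overlapped between the lines, so the direction of NDUFA3 depends on the probe set. NDUFA1, an accessory subunit encoded on the X chromosome that is needed for assembly of the complex, was 10.84 and 11.07 in MCF10.AT1 and 11.21, 11.17 and 11.16 in MCF10.AT1-R. Its change of 0.23 (0.09 to 0.37), which was 0.11 without A01 and 0.34 without A02, did not pass (adjusted p = 0.151 in limma with the low-expression filter alone and the trend option). NDUFB2 and NDUFB7, accessory subunits of the membrane arm, completed the 5 genes that were higher without overlap, each with a change of 0.21.

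In the opposite direction, NDUFB6, an accessory subunit of the membrane arm, measured 8.22 and 8.27 in MCF10.AT1 and 8.06, 7.69 and 7.82 in MCF10.AT1-R. Its change of -0.39 (-0.64 to -0.13) was the largest decrease in complex I, but passed in no fit (adjusted p = 0.819 in limma and 0.133 with the trend option). All 3 resistant arrays were lower, B03 the most. NDUFB8, a membrane arm subunit whose protein is widely used as a marker of assembled complex I, was 9.43 and 9.27 in MCF10.AT1 and 9.06, 8.93 and 8.99 in MCF10.AT1-R. Its change was -0.35 (-0.54 to -0.17), with an adjusted p of 0.83 in limma, 0.0219 with the trend option and 0.0596 with the low-expression filter alone and the trend option.

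NDUFA12, an accessory subunit of the peripheral arm, was 9.58 and 9.52 in MCF10.AT1 and 9.36, 9.11 and 9.14 in MCF10.AT1-R. Its change of -0.35 (-0.54 to -0.16) had an adjusted p of 0.833 in limma, 0.0148 with the trend option and 0.0875 with the low-expression filter alone and the trend option. The lower level of NDUFA12 was thus present on every resistant array, while it was called only with both filters and the trend option. A further probe set of NDUFA12, with a change of 0.38, lay above the negative controls on only 1 of the 5 arrays. The remaining decreases without overlap in complex I were those of NDUFV2, NDUFB5, NDUFB4, NDUFB10, NDUFA6, NDUFB9 and NDUFA10, from -0.28 to -0.07. The NDUFA10 value came from a probe set without a genomic position in its identifier, and NDUFA10 had 16 probe sets in all. Of these, 9 lay above the negative controls on all 5 arrays, with changes from -0.78 to 0.18, of which 3 were lower and 1 higher without overlap and 5 overlapped, so the value of NDUFA10 depends on the probe set.

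The subunits that carry flavin and iron-sulfur clusters belong to the catalytic core of the peripheral arm. NDUFV2, which binds an iron-sulfur cluster next to the flavin, was 9.18 and 9.06 in MCF10.AT1 and 8.99, 8.77 and 8.77 in MCF10.AT1-R, a change of -0.28 (-0.48 to -0.08; adjusted p = 0.842 in limma). It was the only one of the 6 core subunits measured here whose arrays did not overlap. NDUFV1, the NADH- and flavin-binding subunit, was 6.60 and 6.61 in MCF10.AT1 and 6.59, 6.67 and 6.82 in MCF10.AT1-R, a change of 0.09 (-0.19 to 0.37). NDUFS3, a core subunit near the ubiquinone site, had the largest change among the overlapping genes, -0.30 (-0.62 to 0.03), from 6.64 and 6.94 in MCF10.AT1 to 6.51, 6.33 and 6.65 in MCF10.AT1-R. It was -0.15 without A02 and -0.44 without A01. The iron-sulfur proteins NDUFS1, NDUFS7 and NDUFS8 had changes of -0.03 (-0.32 to 0.26), 0.01 (-0.36 to 0.37) and -0.05 (-0.38 to 0.29), and their arrays overlapped.

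Complex II, the succinate dehydrogenase that links the citric acid cycle to the chain, is made of 4 subunits that are all nuclear-encoded. All 4 changes were below 0, with a median of -0.13, and the sum of the 4 levels was 30.73 and 30.89 in MCF10.AT1 and 30.03, 29.95 and 30.28 in MCF10.AT1-R. Most of this difference came from SDHD, a membrane anchor of the complex. SDHD was 7.45 and 7.55 in MCF10.AT1 and 6.96, 7.02 and 7.16 in MCF10.AT1-R. Its change of -0.45 (-0.71 to -0.19) was the second largest decrease of all 54 genes and did not pass in any fit, with an adjusted p of 0.784 in limma, 0.171 with the trend option and 0.105 with the low-expression filter alone and that option. Here B02, not B03, was the lowest array.

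SDHA, the flavoprotein that oxidises succinate, was 9.34 and 9.40 in MCF10.AT1 and 9.17, 9.27 and 9.31 in MCF10.AT1-R, a change of -0.12 (-0.29 to 0.05). The arrays of SDHA did not overlap, although A01 and B04 were only slightly apart. SDHB, the iron-sulfur subunit, was 8.15 and 8.07 in MCF10.AT1 and 8.07, 7.87 and 7.99 in MCF10.AT1-R, a change of -0.13 (-0.35 to 0.09). SDHC, the other membrane anchor, was 5.79 and 5.87 in MCF10.AT1 and 5.83, 5.79 and 5.82 in MCF10.AT1-R, a change of -0.02 (-0.34 to 0.30). For SDHB and SDHC the arrays of the lines overlapped.

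Complex III, the cytochrome bc1 complex, held the extremes of the whole group in both directions, and its 8 genes had a median change of -0.08. UQCRB was 8.62 and 8.66 in MCF10.AT1 and 8.36, 8.01 and 7.95 in MCF10.AT1-R. Its change of -0.54 (-0.80 to -0.28), or 0.69-fold, had an adjusted p of 0.692 in limma, 0.00162 with the trend option and 0.0459 with the low-expression filter alone and that option. All resistant arrays were lower, and B03 and B04 lay further down than B02. CYC1, the cytochrome c1 heme protein that donates electrons to cytochrome c, was 9.98 and 10.06 in MCF10.AT1 and 9.73, 9.69 and 9.73 in MCF10.AT1-R. Its change of -0.30 (-0.44 to -0.16) had close replicates in both lines, was removed from the main test as invariant, and passed in limma with the low-expression filter alone and the trend option (adjusted p = 0.0415).

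UQCRC2, 1 of the core proteins of complex III, was 7.42 and 7.43 in MCF10.AT1 and 8.03, 7.52 and 7.97 in MCF10.AT1-R. Its change of 0.42 (0.10 to 0.73), or 1.34-fold, did not pass (adjusted p = 0.803 in limma and 0.14 with the trend option). The gene was higher on each resistant array, with B03 close to the parental level. UQCRC1, its partner core protein, had a change of 0.17 (-0.08 to 0.42) with overlapping arrays. UQCR10, a small accessory subunit, was 9.31 and 9.29 in MCF10.AT1 and 9.15, 9.17 and 9.01 in MCF10.AT1-R, a change of -0.19 (-0.36 to -0.02; adjusted p = 0.419 in limma with the low-expression filter alone and the trend option). UQCRFS1, the Rieske iron-sulfur protein, was 7.59 and 7.83 in MCF10.AT1 and 7.91, 7.80 and 7.69 in MCF10.AT1-R, a change of 0.09 (-0.16 to 0.34), and its arrays overlapped. UQCRQ and UQCRH, both small accessory subunits, overlapped as well, with changes of -0.02 and -0.14.

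Complex IV, cytochrome c oxidase, had the median nearest to 0, -0.03 over 10 nuclear-encoded genes, with 5 changes on either side of 0, and the median was 0.035 without A01, 0.021 without B03 and -0.077 after quantile normalization over 5 arrays. COX6A1, the non-muscle form of a regulatory subunit, was 9.45 and 9.47 in MCF10.AT1 and 9.74, 9.67 and 9.85 in MCF10.AT1-R. Its change of 0.29 (0.13 to 0.45) had an adjusted p of 0.0908 in limma with the low-expression filter alone and the trend option, and the gene was removed from the main test as invariant. All resistant arrays were above both parental ones. COX7A2, the widely expressed form of another small subunit, was 10.54 and 10.64 in MCF10.AT1 and 10.70, 10.69 and 10.76 in MCF10.AT1-R, a change of 0.12. COX4I1, the subunit through which ATP regulates the enzyme, was 7.34 and 7.40 in MCF10.AT1 and 7.43, 7.46 and 7.52 in MCF10.AT1-R, a change of 0.10 (-0.13 to 0.33). The separation of the lines was narrow for both.

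COX7B, a small subunit needed for assembly of the enzyme, was 9.37 and 9.18 in MCF10.AT1 and 9.03, 8.76 and 9.14 in MCF10.AT1-R. Its change of -0.30 (-0.54 to -0.06) did not pass (adjusted p = 0.839 in limma and 0.106 with the trend option). COX7C, another small subunit, was 9.90 and 9.93 in MCF10.AT1 and 9.86, 9.80 and 9.71 in MCF10.AT1-R, a change of -0.13 (-0.28 to 0.03). Both were lower on each resistant array, by little on B04 for COX7B and on B02 for COX7C. The remaining 5 genes, COX5A, COX5B, COX6B1, COX6C and COX8A, overlapped, with changes from -0.16 (COX5A) to 0.12 (COX6B1).

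Across complexes, the 12 catalytic or redox-centre subunits, counted as the 4 of complex II, CYC1, UQCRFS1 and the 6 core subunits of complex I named above, had a median change of -0.08. The arrays did not overlap for 4 of these 12, NDUFV2, SDHA, SDHD and CYC1, and all 4 were lower in MCF10.AT1-R. For SDHA the separation was narrow (9.34 on A01 and 9.31 on B04). Among all subunit genes, 31.5% were lower and 16.7% higher without overlap, against 13.2% and 12.9% of all probe sets above the low-expression limit. Whether the 12 differ from the other subunit genes was not tested. The plot of named subunits with their intervals orders them from UQCRB to UQCRC2.

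**Figure D2:**
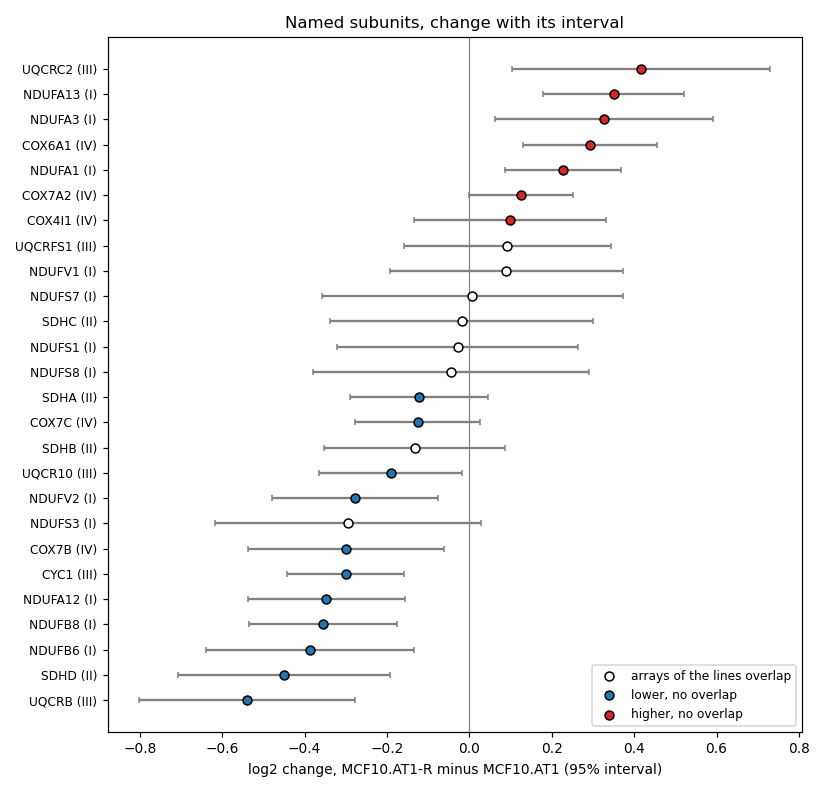
Log2 change (MCF10.AT1-R minus MCF10.AT1) of 26 named subunit genes with its 95% interval from limma with the low-expression filter alone and the trend option, with the complex in parentheses. Filled points mark genes whose arrays did not overlap (blue lower, red higher), open points those that overlapped. The changes run from -0.54 (UQCRB) to 0.42 (UQCRC2).

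Many of these genes have pseudogenes or other copies elsewhere in the genome, which can share probes with them. Copies were chosen here by their symbol alone, and no sequences were compared. The array carried 110 such copy symbols for 31 of the 54 genes, of which 59 lay above the low-expression limit and none was called in limma with both filters. Of the 24 copies above the negative controls on all 5 arrays, 19 had a change with the sign of their parent gene and 5 the opposite sign, the largest of the latter being COX5BP6 (0.53, against -0.10 for COX5B). The arrays did not overlap for 7 of the 24 copies, 5 lower and 2 higher, against 13.2% and 12.9% of all probe sets above the low-expression limit. For 6 of these 7 the parent gene was separated in the same direction. How often directions agree in other pairs of genes was not counted. COX6A1P2 was 9.25 and 9.56 in MCF10.AT1 and 9.74, 9.82 and 9.85 in MCF10.AT1-R, a change of 0.40 in the same direction as COX6A1. Its adjusted p was 0.81 in limma, 0.000477 with the trend option and 0.0476 with the low-expression filter alone and that option. SDHDP2 (-0.43) and SDHDP6 (-0.26) were lower without overlap, as was SDHD, and NDUFV2P1 (-0.32) was lower, as was NDUFV2. How far the probes of a gene and its copies share signal is unknown here, and the values of SDHD, NDUFV2 and COX6A1 are uncertain to that extent.

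The other genes of oxidative phosphorylation were taken from lists of the remaining parts of the system. Of 18 listed ATP synthase genes 17 were matched, with a median change of -0.03. None passed in limma with both filters, where 1 had an unadjusted p under 0.05. ATP5MC2, 1 of the genes for the membrane ring subunit c, had the largest decrease: it was 7.69 and 7.53 in MCF10.AT1 and 7.00, 6.91 and 6.79 in MCF10.AT1-R, a change of -0.71 (-0.98 to -0.45). Its adjusted p was 0.441 in limma, 0.0019 with the trend option and 0.00889 with the low-expression filter alone and that option. The largest increase was that of ATP5IF1, the inhibitor of the synthase, at 0.37 (0.15 to 0.58; adjusted p = 0.828 in limma). Of the 17 genes 3 were higher and 7 lower without overlap, against 12.9% and 13.2% of all probe sets above the low-expression limit.

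Of 13 listed subunits encoded by mitochondrial DNA 10 were matched, with a median change of 0.23, 7 changes above 0 and 3 below. Without overlap 5 of the 10 were higher and 2 lower, against 12.9% and 13.2% of all probe sets above the low-expression limit. When B04 was left out 8 were higher, a count without a reference, and fewer arrays make separation easier. None passed in limma with both filters, and none had an unadjusted p under 0.05 there. With the trend option, and with the low-expression filter alone and that option, 4 passed, all higher. Of all probe sets tested in these fits, 1.69% and 1.13% were called higher. The values that follow are from the fit with the low-expression filter alone and the trend option. MT-ND6, a complex I subunit and the only protein encoded on the light strand, was 7.86 and 7.66 in MCF10.AT1 and 8.38, 8.34 and 8.35 in MCF10.AT1-R, a change of 0.60 (0.38 to 0.82; adjusted p = 0.00726). MT-ND5, a proton-pumping subunit of complex I, was 10.14 and 10.20 in MCF10.AT1 and 10.58, 10.65 and 10.57 in MCF10.AT1-R, a change of 0.44 (adjusted p = 0.00157). MT-CYB, cytochrome b of complex III, and MT-CO2, which receives electrons from cytochrome c in complex IV, had changes of 0.44 (adjusted p = 0.000798) and 0.42 (adjusted p = 0.00255). MT-ND1, the complex I subunit at the ubiquinone site, had the largest decrease, -0.26 (-0.39 to -0.12; adjusted p = 0.081). The difference between nuclear- and mitochondrial-encoded subunits was not tested as such.

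**Figure D3:**
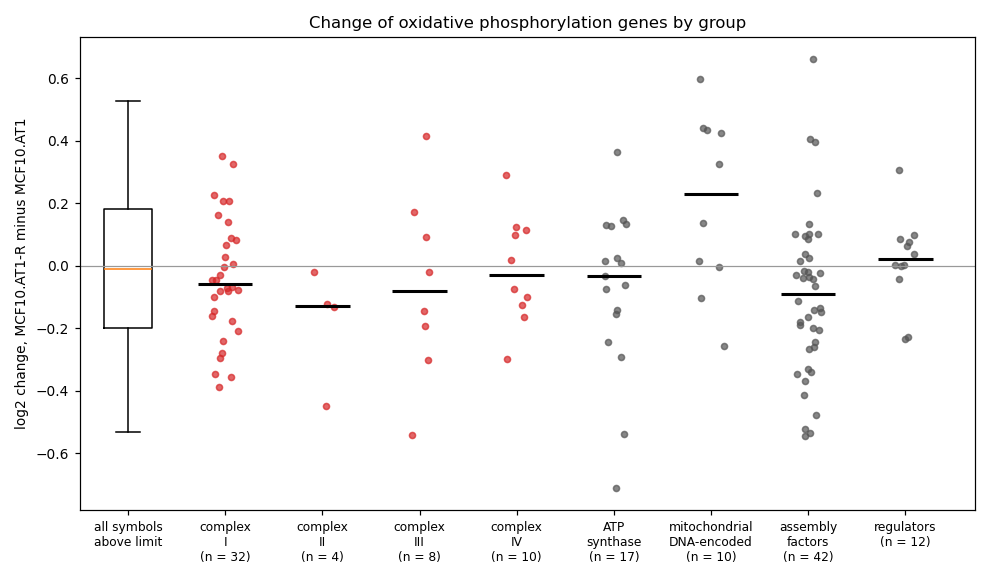
Log2 change (MCF10.AT1-R minus MCF10.AT1) of single genes, 1 point per gene, for complexes I to IV (red, nuclear-encoded subunits) and for ATP synthase subunits, mitochondrial DNA-encoded subunits, assembly factors and regulators of mitochondrial genes (grey), with black bars at the medians. The box shows the quartiles and the whiskers the 5th and 95th percentiles of all 47805 symbols above the low-expression limit. The medians of complexes I to IV lie between -0.13 and -0.03 and that of the mitochondrial DNA-encoded subunits at 0.23.

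Of 44 listed assembly factors, which build the complexes and insert their cofactors, 42 were matched, with a median change of -0.09. None was called in limma with both filters, where 1 had an unadjusted p under 0.05. COX11, a copper chaperone of complex IV, was 7.65 and 7.78 in MCF10.AT1 and 7.31, 7.04 and 7.17 in MCF10.AT1-R. Its change of -0.54 was the largest decrease and passed with the trend option (adjusted p = 0.0315) and with the low-expression filter alone and that option (adjusted p = 0.0433). NUBPL, which delivers iron-sulfur clusters to complex I, had the largest increase, 0.66 (0.01 to 1.32), at low levels between 2.19 and 3.49. Without overlap 4 of the 42 assembly factors were higher and 11 lower, against 12.9% and 13.2% of all probe sets above the low-expression limit. Among 15 other and tissue-specific subunits the median was -0.01 and none was called in limma, nor had any an unadjusted p under 0.05 with both filters. NDUFA11 of the membrane arm had the largest increase (0.30), and NDUFA4L2 and COX6A2 the largest decreases (-0.45 each), with NDUFA4L2 within the negative controls on all 5 arrays.

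The 12 transcriptional regulators of mitochondrial genes were all measured, none was called by limma in any of these fits, and none had an unadjusted p under 0.05 with both filters. Their changes ran from -0.23 to 0.31, with a median of 0.02. GABPB1, a subunit of the ETS factor GABP, had the largest increase (0.31), and its partner GABPA a change of 0.00. NRF1 had a change of -0.23, with 5.05 and 5.08 in MCF10.AT1 and 5.04, 4.72 and 4.76 in MCF10.AT1-R. It was the only 1 of the 12 regulators whose arrays did not overlap, and A01 and B02 were only slightly apart. Over all probe sets above the low-expression limit, 13.2% were lower without overlap. YY1 had a change of 0.09. TFAM, which packages mitochondrial DNA, had a change of 0.08, and the mitochondrial RNA polymerase POLRMT one of 0.00. The transcription factors TFB1M and TFB2M had changes of -0.23 and 0.00. The coactivators PPARGC1B and PPRC1 had changes of 0.10 and -0.04, and the nuclear receptor ESRRA one of 0.06. PPARGC1A, the coactivator PGC-1α, was above the negative controls on only 1 of the 5 arrays.

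On the removed array A03 every one of the 54 subunit genes was lower than on each of the other 5 arrays, against 27.9% of all symbols above the low-expression limit and 42.8% of those above the negative controls on all 5 arrays. The median difference from the mean of A01 and A02 was -4.62, from -7.26 (COX7B) to -0.82 (NDUFA7), and that of all symbols above the low-expression limit was 0.24. Other lists were lower on A03 too, with a median difference of -5.00 for ATP synthase, -4.85 for mitochondrial DNA-encoded subunits, -3.41 for assembly factors and -3.23 for breast epithelial markers. Of the 54 subunit genes 18 lay at or below the 95th percentile of the negative controls, against none on any other array. The summed level of the 54 genes was 453.7 and 454.8 on A01 and A02, 452.9, 447.8 and 454.2 on B02, B03 and B04, and 210.6 on A03. With A03 counted among the MCF10.AT1 arrays, the median change of the 54 genes was 1.45 in place of -0.07. Among the 5 arrays compared, the sum of B03 was the lowest, and that of B04 was between those of A01 and A02.

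**Figure D4:**
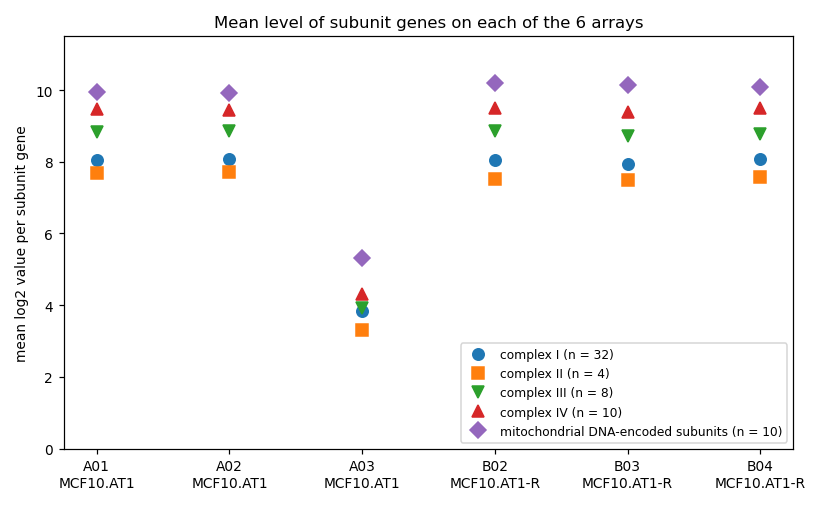
Mean log2 value per gene on each of the 6 arrays for the nuclear-encoded subunits of complexes I to IV and for the mitochondrial DNA-encoded subunits, 1 point per group and array, without error bars since each point is a single array. The 5 arrays compared are close to each other in every group, whereas A03 lies between 3.32 (complex II) and 5.32 (mitochondrial DNA-encoded subunits).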

How the data were processed

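Total RNA (Trizol) of MCF10.AT1 and MCF10.AT1-R was hybridised to Clariom D arrays. The deposited values are on the log2 scale, 1 for each probe set and each of 6 arrays, and were made by the authors by RMA in the Bioconductor packages affy and oligo (background correction, quantile normalization across arrays, summarisation) and not yet filtered. Because A03 was normalized with the other arrays, it could have shaped their values. The annotation build is not given in the sources used here. Array columns carry only a letter and number, and A was read as MCF10.AT1 and B as MCF10.AT1-R.

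From these values 2995 control probe sets were left out of the comparison, and A03 was left out as in the study. Probe sets with a mean over 5 arrays above the median (1.88) and an SD above the lowest 25% (0.18) were kept, limits chosen here since the study names none. The 51457 probe sets were tested in R 4.3.3 using limma 3.58.1 (functions lmFit and eBayes), with p-values adjusted by Benjamini-Hochberg, with an FDR threshold of 5%. This fit used a common SD of 0.34. Subunit genes outside the filter took their change from the same values and carried no call. The scripts were tested on simulated data.

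Named genes were those called in the main or trend fit, the 3 largest increases and decreases without overlap in complexes I, III and IV, all of complex II, the catalytic and redox-centre subunits, probe sets of 1 gene with opposite directions, copies, and of other lists the called genes, both extremes and all regulators. The remaining genes that were named to complete a count were chosen after their values were seen. Members and lists were chosen with earlier results of these data known, and no list was tested as a set. Alternatives changed the arrays, filters, variance model, array weights, normalization and the handling of several probe sets.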

Additional observations from a re-analysis of the deposited data

How the results depend on the processing

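Adding A03 to MCF10.AT1 changed most: no subunit gene (0) was then lower without overlap, and the median change became 1.45 over all 54 genes, 1.43 in complex I, 1.24 in complex II, 1.51 in complex III and 1.67 in complex IV, with no gene called by limma. The direction turned for NDUFA12 (1.77), NDUFB6 (1.41), NDUFB8 (1.86), NDUFS1 (1.12), NDUFS3 (0.059), NDUFS8 (0.42), NDUFV2 (1.58), SDHA (1.40), SDHB (1.70), SDHC (1.07), SDHD (0.95), UQCRB (1.42), UQCR10 (1.65), CYC1 (1.35), COX7B (2.12) and COX7C (1.76). Limma called 1 subunit gene higher and 3 lower with the trend option, and 1 higher and 2 lower with the low-expression filter alone and that option. Quantile normalization over 5 arrays moved the medians of complexes II and IV to -0.16 and -0.077 and turned NDUFS7 (-0.010). Averaging the probe sets of a gene turned NDUFA3 (-0.11) and NDUFA12 (0.015).

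Leaving out each array in turn gave 9 to 16 genes higher and 17 to 25 lower without overlap, where fewer arrays make separation easier. Without A02 16 were higher and 25 lower, and without B03 14 and 17. The share over all probe sets was not counted with an array left out, so these counts have no reference. Medians ranged from -0.08 to -0.02 over all genes and in complex I, from -0.15 to -0.11 in complex II, from -0.12 to -0.03 in complex III and from -0.062 to 0.035 in complex IV, the last without A01 and also above 0 without B03 (0.021). Changes near 0 turned for UQCRFS1 without A01 (range over the arrays left out -0.025 to 0.21), for NDUFS7 without A02 and, with -0.085, without B04 (-0.12 to 0.14), for NDUFS8 (-0.21 to 0.12) and SDHC (-0.058 to 0.021) without A02, and for NDUFS1 without B03 (-0.10 to 0.019). Calls over all probe sets ranged from 271 without A02 to 595 without B03, against 620 with all 5 arrays. No subunit gene was called by limma with any 1 array left out, with array weights, or with either filter choice without trend. Of the values of named genes under alternatives, 332 kept their direction and were not called, 25 turned and 7 were called. Of the 332, 198 were tested under the alternative and 134 were not, because the filter removed the gene there. Some of these genes, CYC1 among the 7, had not been tested in the main fit. No paired analysis was possible because the array names carry no replicate number. The smallest change called in the main test, with its common SD, was 1.07, whereas the trend fits called changes of 0.30 and 0.35 on the same arrays.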

Other observations

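On the removed array A03 the subunit genes and their copies, chosen by symbol, lay mostly on opposite sides of A01 and A02. All 54 subunit genes were lower on A03 than on A01 and A02, whereas of the 24 copies above the negative controls on all 5 other arrays 22 were higher on A03 than on A01 and A02, with a median difference of 0.81 from their mean. Of the 23658 symbols above the negative controls on those 5 arrays, 45.6% were lower and 48.8% higher on A03 than on both; levels were not matched. COX6A1P2 and UQCRHL were the 2 exceptions among the copies. SDHDP6, for instance, was 6.49 and 6.46 on A01 and A02 and 7.65 on A03, while SDHD was 7.45 and 7.55 on A01 and A02 and 3.31 on A03. UQCRFS1P1 was 8.03 and 8.04 on A01 and A02 and 9.23 on A03, while UQCRFS1 was 7.59 and 7.83 on A01 and A02 and 3.79 on A03. The copies named here were chosen after their values were seen.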
